A study of Arabidopsis thaliana with 40 samples.

Results

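The root cap NAC factors *FEZ*, *SMB*, *BRN1* and *BRN2* were examined in CEL-Seq profiles of single cells of the *Arabidopsis thaliana* root sorted for a reporter of the quiescent center (QC), whose slowly dividing cells lie in the middle of the stem cell niche. The 4 genes were chosen by locus, AT1G26870 for *FEZ* (FEZ), AT1G79580 for *SMB* (SOMBRERO), AT1G33280 for *BRN1* (BEARSKIN1) and AT4G10350 for *BRN2* (BEARSKIN2), and make up 4 of the 32678 *Arabidopsis* loci in the expression table. The rule names them by locus and uses no measured value, although it was written with earlier results of these data known. All 4 were listed at 0 in every profile, from the shallowest to the deepest.

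The 40 samples formed 1 group with no control, mutant or treatment. Each was labelled as a QC cell of a Col-0 plant carrying the *WOX5:GFP* reporter, grown on plates with 1xMS, 0.5% sucrose and 0.8% agar and harvested 5 days after stratification. Root cell walls were digested, GFP-positive cells were collected by fluorescence-activated sorting, and polyadenylated RNA was amplified by in vitro transcription. In this reporter the promoter of *WOX5*, a homeobox gene of the QC, drives GFP, so the sort rests on the activity of that promoter, and the labels name no plant, pool or batch for any cell.

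NAC proteins are a large family of plant transcription factors that share a DNA-binding domain near the start of the protein. *FEZ* is known to act in the stem cells of the columella and of the lateral root cap and epidermis, which adjoin the QC, where it promotes the divisions that form new root cap layers and activates *SMB* in the daughter cells. *SMB* in turn represses *FEZ*, ends stem cell-like division and promotes differentiation and the developmental cell death of the root cap. *BRN1* and *BRN2* act redundantly, and together with *SMB*, in the last steps of root cap maturation, including the detachment of cells from the root tip.

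The 4 genes are shown here by the start of the region that encodes the NAC domain, because this domain places all 4 in 1 family and shows how closely each resembles the others. The letters are RefSeq sequence of build TAIR10.1, 60 bases from 5′ to 3′ on the coding strand, and capitals mark the 38 positions at which all 4 genes have the same base. The stretches are coding and lie without an intron at chr1:9313080-9313139 on the plus strand for *FEZ*, chr1:29942812-29942871 on the minus strand for *SMB*, chr1:12072768-12072827 on the plus strand for *BRN1* and chr4:6416740-6416799 on the minus strand for *BRN2*.
FEZ: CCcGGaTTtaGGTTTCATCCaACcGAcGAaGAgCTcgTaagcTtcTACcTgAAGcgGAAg
SMB: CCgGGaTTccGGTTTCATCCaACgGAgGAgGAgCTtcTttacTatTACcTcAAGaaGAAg
BRN1: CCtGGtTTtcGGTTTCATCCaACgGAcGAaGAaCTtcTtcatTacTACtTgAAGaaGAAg
BRN2: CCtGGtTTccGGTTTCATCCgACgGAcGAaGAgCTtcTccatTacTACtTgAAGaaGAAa
*BRN1* and *BRN2* had the same base at 55 of the 60 positions. *SMB* shared 49 positions with *BRN1* and 48 with *BRN2*. *FEZ* shared between 43 and 45 positions with the other genes and so stood furthest from them.

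The whole proteins were translated from the coding sequences and aligned with no cost for gaps at the ends. *BRN1* and *BRN2* were again the most alike and *FEZ* the least like the others. *BRN1*, with 305 residues, and *BRN2*, with 341 residues, were identical at 74.4% of the length of the shorter protein. *SMB*, with 371 residues, had 50.1% identity to *BRN2* and 49.5% to *BRN1*. *FEZ*, with 418 residues, had 37.2% identity to *BRN2*, 36.4% to *BRN1* and 33.7% to *SMB*.

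Each gene was annotated with 3 exons in the transcript used here, the one with the longest coding sequence, and overlapped 0 other annotated genes. *FEZ* spans bases 9312936 to 9315122 of chromosome 1 on the plus strand, with a spliced transcript of 1489 bases. *SMB* spans bases 29940803 to 29943713 of chromosome 1 on the minus strand and has 5 annotated transcripts, and the spliced transcript used here has 1906 bases. *BRN1* spans bases 12072611 to 12073965 of chromosome 1 on the plus strand, with a spliced transcript of 1180 bases. *BRN2* spans bases 6415120 to 6416961 of chromosome 4 on the minus strand, with 2 annotated transcripts, and the one used here has 1325 bases. CEL-Seq reads the 3′ ends of transcripts. In the transcripts used here, the annotated 3′ untranslated regions had 139 bases in *FEZ*, 217 in *SMB*, 132 in *BRN1* and 167 in *BRN2*. These lengths are from the TAIR10.1 annotation, whereas the submitters name TAIR10 and no counter for CEL-Seq. The part of the annotated 3′ ends in the listed 0 was not tested.

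The profiles must be described before the values. A profile was matched to 39 of the 40 samples, and the recovered counts summed over the loci were 57655 in the shallowest profile, labelled QC cell 4, 2096738 in the median profile and 7431708 in the deepest, labelled QC cell 22. Ordered by depth, 0 values were lower in a deeper profile than in a shallower one over 38 steps, so that every profile held all the counts of the profiles shallower than itself. The profiles were therefore counted as 1 sample, levels were read in the deepest profile, and no test was made across cells. Of the genes that define the QC and its surroundings, *WOX5* had 10.6 CPM (the count divided by the total over the loci, times 1e+06) and *SCR*, a gene of the QC and endodermis, had 28.5 CPM in the deepest profile, while the row of the GFP reporter was 0 in all profiles. Of the study's 24 QC markers, 10 were above 0 in the deepest profile, beside 51.3% of all loci and 60.3% of protein-coding loci. At least 10 counts were held by 5 of them, beside 47.3% of all loci. *PLT1* and *BBM* were among the markers at 0. Depth, the nesting and the listed 0 of the reporter touch every value given here, and their part in the results was not tested.

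*FEZ* was 0 in all 39 profiles, and so were *SMB*, *BRN1* and *BRN2*. All 156 values of the 4 genes were thus 0, and no profile was high or low. In the deepest profile 0 of the 4 genes was above 0, against 51.3% of all loci and 60.3% of the protein-coding loci. At a limit of 10 counts the number was again 0 of 4, against 47.3% of all loci. The 4 genes belonged to the 15898 loci, 48.65% of the table, that were 0 in every profile. The genes could be placed in no order of level, and no gene could be named for a pattern like theirs, since both need counts. With 4 genes, the distance of 0 from the share of all loci was not tested.

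**Figure D1:**
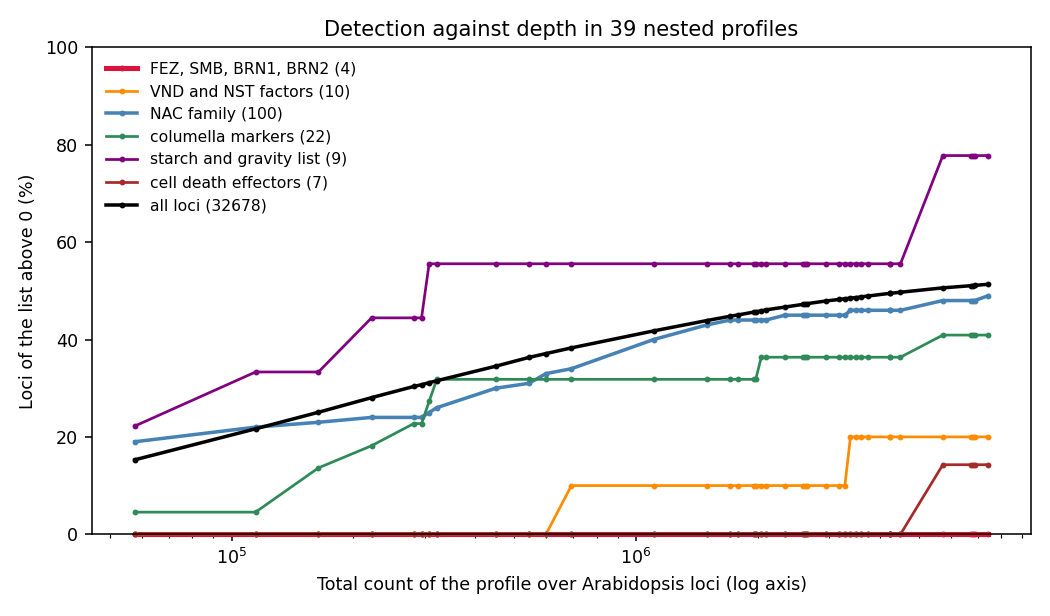
Share of the loci of each list that were above 0 (vertical axis, percent) in the 39 nested profiles, against the total count of the profile over *Arabidopsis* loci (log axis). The line of the 4 root cap NAC factors stays at 0 up to the deepest total of 7431708 counts. There, 49 of the 100 NAC loci and 2 of the 10 VND and NST factors were above 0, beside 51.3% of all loci. The share was 60.3% for protein-coding loci. The line of cell death effectors holds the 7 genes of the cell death list that are not NAC factors.

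A listed 0 set no upper limit on the level of a gene in this table. The smallest count above 0 in any profile was 2, and a locus with a count in the deepest profile had at least 0.269 CPM there. Some loci went straight from 0 to many counts. The clearest case within the family was AT3G15510, which the gene table calls NAC2. It was 0 in the 8 shallowest profiles, where its later level gave an expected 129.9 counts in the last of them. It then had 192 counts in the next profile, that of QC cell 28. Over all loci, 79 were above 0 in the deepest profile alone, with a median of 5 counts and a highest count of 824, or 111 CPM. Of the 11783 loci that were 0 in the shallowest profile and above 0 later, 283 had a first count of at least 30. For *FEZ*, *SMB*, *BRN1* and *BRN2* the data thus give a listed 0 at every depth reached, and neither an absence of the transcripts nor a highest level they could have had.

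The loci next to the 4 genes are given by position. *FEZ* lies 182 bases from AT1G26880, which had 601 counts, 80.9 CPM, and was above 0 in all 39 profiles, while the pseudogene AT1G26860 on the other side, 7135 bases away, was at 0. *SMB* lies between AT1G79570, at 177 counts or 23.8 CPM, and *SYP52* (AT1G79590), which encodes a syntaxin of membrane traffic, at 145 counts or 19.5 CPM. *BRN1* lies between AT1G33270, at 17 counts, and AT1G33290, at 14 counts and only 133 bases away. *BRN2* lies between *MIR832*, a microRNA gene at 0, and AT4G10360, at 67 counts or 9.02 CPM. Of the 8 neighbours, 6 were above 0, beside 51.3% of all loci, and with 8 loci nothing is read from this number.

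Since near-identical transcripts can share or lose reads, the longest exact stretch in common was measured between transcripts. It was 24 bases between *BRN1* and *BRN2*, in the coding sequence, and it is printed in full because it is the closest match among the 4 genes.
BRN1 and BRN2: aaaagtttgagatggaagtcatca
The other pairs shared at most 17 bases. Against the transcripts so chosen for the NAC loci outside the 4 genes, the longest stretch was 20 bases for *FEZ*, 35 for *SMB*, 24 for *BRN1* and 25 for *BRN2*. A partner in a stretch of that length was *NAC101* (VND6), at 0, for *SMB* and *NAC012* (NST3), at 0, for *FEZ* and *BRN2*, whereas for *BRN1* it was *NAP*, which had 2925 counts. In its methods the study states that a read with several alignments was counted in part. The statement stands before the description of the CEL-Seq libraries, and whether it covers them is not given in the sources used here. The part of shared reads in the listed 0 was not tested.

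Of the 100 loci of the NAC family, 4 of which are *FEZ*, *SMB*, *BRN1* and *BRN2*, 49 were above 0 in the deepest profile and 51 were at 0, beside 51.3% of all loci and 60.3% of protein-coding loci above 0. Some of the other NAC genes had high levels. The family summed to 4814 CPM, and its 5 highest loci held 57.66% of this sum. CPM was not divided by transcript length, so the order of these loci is an order of 3′ end counts. *NAC102* (AT5G63790) had 1043 CPM in the deepest profile, with a 95% interval from 1020 to 1067 for counting error alone, and between 937 and 1059 CPM over the 39 profiles. *ATAF2* (AT5G08790), known from stress and wounding responses, had 521 CPM (505 to 538). *NAC083* (AT5G13180), whose protein VNI2 binds VND7 and restrains xylem vessel formation, had 413 CPM (399 to 428). AT3G15510 had 404 CPM (389 to 419), and its interval overlapped that of *NAC083*. *NAP* (AT1G69490), a promoter of leaf senescence, had 394 CPM (379 to 408), which overlapped the interval of AT3G15510. The median of the NAC loci above 0 was 11.8 CPM, against 12.1 CPM for all loci above 0.

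**Figure D2:**
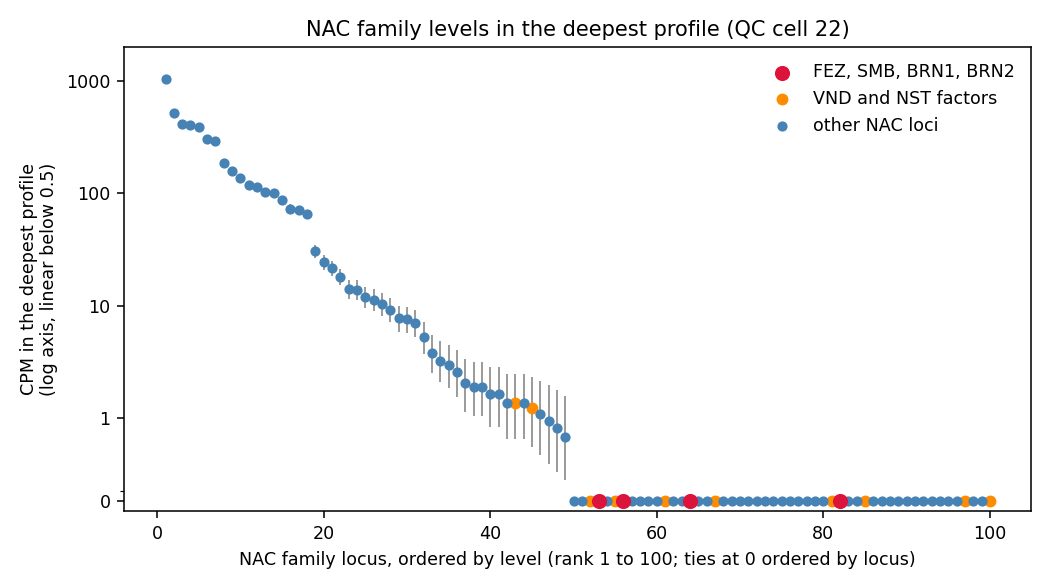
Level of each of the 100 NAC loci in the deepest profile (CPM, log axis that is linear below 0.5), in order of level, with exact 95% intervals for counting error as bars. *FEZ*, *SMB*, *BRN1* and *BRN2* (red) lie among the 51 loci at 0, whose order is by locus only, and *NAC102* leads with 1043 CPM.

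The NAC proteins most like the 4 root cap factors were compared with the rest of the family. The nearest protein to *FEZ* was *NAC094* (AT5G39820), with 49.6% identity, and it too was at 0 in the deepest profile. The nearest to *SMB* and to *BRN1* was *BRN2*, and the nearest to *BRN2* was *BRN1*. Outside the 4 genes, *SMB* was nearest to *NAC105* (VND3), with 50% identity, and *BRN1* was nearest to *ANAC026* (VND5), with 50.2%, and both of these were at 0. *BRN2* was nearest to *NST1*, with 47.8%, which had 10 counts. Among the 10 nearest other NAC proteins of each gene, 7 were above 0 for *FEZ*, 3 for *SMB*, 2 for *BRN1* and 2 for *BRN2*. The share was 51.3% for all loci and 60.3% for protein-coding loci. The neighbours of *FEZ* reached 521 CPM, the level of *ATAF2*, and those of *BRN1* reached 1.35 CPM, the level of *NST1*. Those of *BRN2* reached 157 CPM, the level of *NAC6* (AT5G39610), and those of *SMB* reached 137 CPM, the level of *NAC032*. The lists of nearest proteins overlap, since *SMB*, *BRN1* and *BRN2* resemble each other. Over the 96 other NAC loci, 23 of the 42 with at least 40% identity to any of the 4 were above 0. So were 26 of the 54 below that limit, beside the same 51.3% of all loci. The limit was chosen after the values were seen.

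**Figure D3:**
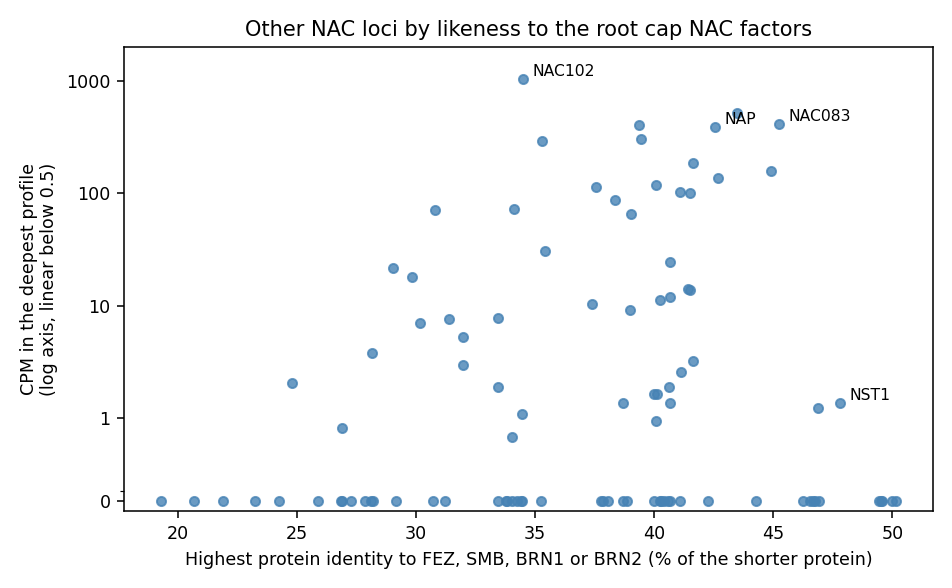
Level of the other 96 NAC loci in the deepest profile (CPM, log axis that is linear below 0.5) against their highest protein identity to *FEZ*, *SMB*, *BRN1* or *BRN2* (percent of the shorter protein). Of the loci with at least 40% identity 23 of 42 were above 0, and below it 26 of 54 were, beside 51.3% of all loci.

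The VND and NST factors switch on secondary wall formation in vessels and fibers and hold the nearest outside relatives of *SMB*, *BRN1* and *BRN2*. In the deepest profile 2 of the 10 were above 0, beside 51.3% of all loci and 60.3% of protein-coding loci. The number was 1 of 10 at a limit of 10 counts, beside 47.3% of all loci. It was also 1 of 10 in the profile of median depth, where 15062 of the 32678 loci were above 0. *VND7* (AT1G71930), which directs the formation of xylem vessels, had 9 counts or 1.21 CPM (0.554 to 2.30) and was above 0 in 28 profiles. *NST1* (AT2G46770), a regulator of secondary walls in fibers and anthers, had 10 counts or 1.35 CPM (0.645 to 2.47) and was above 0 in 12 profiles. Their intervals overlap. *VND1* to *VND6*, *NST2* and *NST3* were at 0 beside the 4 root cap factors.

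*SMB* is known to set up the death of root cap cells through nucleases and proteases. In the deepest profile 1 of 7 cell death genes besides NAC factors was above 0, against 51.3% of all loci and 60.3% of protein-coding loci. That gene was *CEP1* (AT5G50260), a cysteine endopeptidase, with 13 counts or 1.75 CPM (0.931 to 2.99), and it was above 0 in the 5 deepest profiles only. The nuclease gene *BFN1*, the aspartic protease gene *PASPA3*, the ribonuclease gene *RNS3*, the metacaspase gene *MC9* and the genes *DMP4* and *EXI1* were at 0, as *SMB* was. Of 4 NAC factors that promote cell death elsewhere or late in the root cap, 3 were above 0, beside the same shares. The 7 genes and the NAC factors form 1 list of 11 genes, of which 4 were above 0. *ORE1* (AT5G39610, NAC6 in the gene table), a regulator of leaf senescence, had 1164 counts or 157 CPM (148 to 166) and between 121 and 189 CPM over the 39 profiles. *NAC087* (AT5G18270) had 13.9 CPM (11.3 to 16.8) and *NAC046* (AT3G04060) had 11.3 CPM (9.02 to 14.0), intervals that overlap. *KIR1*, which acts in the stigma, was at 0.

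*BRN1* and *BRN2* are known to act on the walls that hold root cap cells together. *RCPG*, a root cap polygalacturonase gene that is a direct target of both, was at 0 in the deepest profile, as were *BRN1* and *BRN2* themselves. Of the 6 genes of the detachment list, 4 were above 0 in the deepest profile, beside 51.3% of all loci and 60.3% of protein-coding loci. The number was 2 in the profile of median depth, where 15062 of the 32678 loci were above 0. *IDL1* (AT3G25655), a peptide gene of the IDA family, had 99 counts or 13.3 CPM (10.8 to 16.2) and was above 0 in 38 profiles. *CEL5* (AT1G22880), a cellulase gene of the root cap, had 40 counts or 5.38 CPM (3.85 to 7.33) and was above 0 in 36 profiles. The other cellulase gene, *CEL3* (AT1G71380), had 12 counts and was above 0 in the 4 deepest profiles. *HSL2* (AT5G65710), a receptor kinase gene for IDA-type peptides, had 8 counts and was above 0 in 5 profiles, while *HAE*, its close relative, was at 0. *IDL1* and *CEL5* were thus above 0 from a low depth on, and *CEL3* and *HSL2* only in the deepest profiles. *RCPG* and *HAE* stayed at 0, as *BRN1* and *BRN2* did. In nested profiles, the number of profiles above 0 gives only the depth at which a gene first passed 0.

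*FEZ* works in the stem cells of the columella, which are held by signals from the QC. Of 10 genes for this control, 6 were above 0, beside 51.3% of all loci and near the 60.3% of protein-coding loci. *TPL* (AT1G15750), a corepressor recruited by WOX5, had 85.7 CPM (79.2 to 92.6) and was above 0 in all 39 profiles. *CDF4* (AT2G34140), which WOX5 and TPL repress in columella stem cells, had 69.6 CPM (63.7 to 75.8) in 38 profiles. *WOX5* (AT3G11260) had 79 counts (8.42 to 13.2 CPM) and was above 0 in 30 profiles. *RBR1* (AT3G12280), the retinoblastoma homolog that limits stem cell number, had 3.77 CPM (2.50 to 5.45). The auxin response factor genes *ARF10* and *ARF16* had 3.50 and 2.15 CPM. *CLE40*, *ACR4* and *CLV1*, the peptide and receptor kinase genes of the signal from the root cap side, were at 0 with *FEZ*, and so was *ARF17*.

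Genes of the mature columella, where *SMB*, *BRN1* and *BRN2* act, were also read in part. Of 9 genes for starch and gravity sensing, 7 were above 0, beside 51.3% of all loci and 60.3% of protein-coding loci. *ARG1* (AT1G68370), a chaperone-like gene of gravity signaling, had 89.3 CPM (82.7 to 96.4) in all 39 profiles. The auxin efflux genes *PIN3* (AT1G70940) and *PIN7* (AT1G23080) had 24.0 CPM (20.6 to 27.7) and 12.2 CPM (9.86 to 15.0), and *LZY3* (AT1G72490), a gene of the LAZY family, had 17.9 CPM (15.0 to 21.2). *PGM1*, needed for starch, and *LZY4* were at 0. Of the study's 22 columella markers, 9 were above 0, which is 40.91%, against 51.3% of all loci and 60.3% of protein-coding loci. The highest was *UGT85A1* (AT1G22400), a glycosyltransferase gene, with 99.98 CPM (92.9 to 107), and *LZY3* came next. *UGE2* (AT4G23920), an epimerase gene of cell wall sugars, had 12.9 CPM (10.5 to 15.8) and *AMY3* (AT1G69830), an alpha-amylase gene, had 10.6 CPM (8.42 to 13.2). For the study's QC markers the number was 10 of 24, or 41.67%. At a limit of 10 counts it was 8 of 22 for the columella markers and 5 of 24 for the QC markers, beside 47.3% of all loci. How near the shares of these 2 lists lie thus depends on the limit, and their difference was not tested.

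Of the 5 genes for the root cap cuticle, 3 were above 0, beside 51.3% of all loci and near the 60.3% of protein-coding loci. *ABCG11* (AT1G17840), an exporter of cuticle lipids, had 76 counts or 10.2 CPM (8.06 to 12.8) but was above 0 in the 9 deepest profiles only, with 47 counts at its first appearance, where 36.79 were expected in the profile before. *DCR* (AT5G23940) and *GPAT4* (AT1G01610), acyltransferase genes of cutin synthesis, had 4.17 CPM (2.83 to 5.92) and 3.50 CPM (2.29 to 5.13), and *BDG1* and *GPAT8* were at 0.

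**Figure D4:**
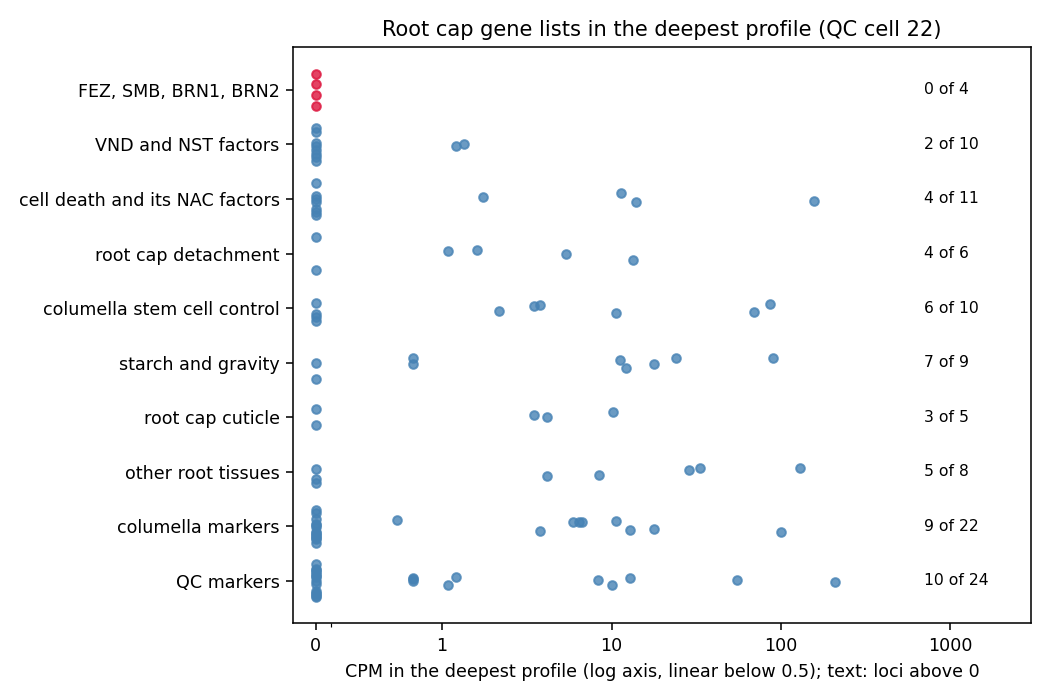
Level of each gene of the root cap lists in the deepest profile (CPM, log axis that is linear below 0.5), with the number of loci above 0 at the right, and with points spread vertically only to keep them apart. The 4 root cap NAC factors are all at 0. Above 0 were 7 of 9 genes for starch and gravity, 6 of 10 for columella stem cell control and 4 of 11 of the cell death list. The share was 51.3% for all loci and 60.3% for protein-coding loci. The cell death row holds both the 7 genes that are not NAC factors, 1 of which was above 0, and the NAC factors of that list.

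Genes of other root tissues were read in the same profile in which the root cap factors were at 0. Of 8 such genes 5 were above 0, beside 51.3% of all loci and near the 60.3% of protein-coding loci. *MYB36* (AT5G57620), which directs endodermal differentiation, had 130 CPM (122 to 138) in all 39 profiles, and *WOL* (AT2G01830), a cytokinin receptor gene of the stele, had 33.5 CPM (29.5 to 37.9). *SCR* (AT3G54220) had an interval of 24.8 to 32.6 CPM and was above 0 in 37 profiles. *GL2* (AT1G79840), a regulator of epidermal cell fate, had 8.48 CPM (6.51 to 10.8), and *SHR* had 4.17 CPM. The epidermal genes *WER* and *COBL9* and the endodermal gene *CASP1* were at 0. The summed level of the list was 205 CPM, and its part in the values of the root cap lists was not tested.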

How the data were processed

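CEL-Seq libraries of 40 samples labelled as QC cells were examined as 1 group, and 39 were matched to the expression table by barcode. QC cell 14 was not analysed here. The deposited values are log2 of a depth-normalized count plus 1, made by the authors. The processing notes of the submitters name Bowtie2 and TAIR10, with no version. For cells picked by hand, the study describes counting with ngsutils and a filter on how much of a gene the reads covered. Which counter and filters were used for CEL-Seq is not given in the sources used here. Counts were recovered as whole multiples of a step, within 0.00127 of a step, and scaled to CPM (the count divided by the total, times 1e+06) over the 32678 *Arabidopsis* loci. Spike-in rows, 4.973% of the counts of the deepest profile, were left out, and 4 ribosomal RNA loci held 13.89% of the counts of the loci. Gene names came from a TAIR10.1 table that held 31912 loci.

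Intervals are exact Clopper-Pearson intervals at 95% and cover counting error only, since no molecular identifiers are stated. They take each recovered step as a read, which the sources used here do not state. The 4 genes and the lists, from textbook knowledge and the study's marker sheet, were chosen with earlier results of these data known. The rule named the 4 genes, the 4 highest loci of each list, the 5 highest NAC loci and the nearest NAC protein of each gene. Other list members, the genomic neighbours and further relatives were named after their values were seen. The NAC family was taken by symbol or synonym in the gene table, and the 4 root cap factors and the 10 VND and NST factors were added to it by locus. Proteins were aligned globally with BLOSUM62, with no cost for gaps at the ends. Count recovery was tested on simulated data. Python 3.11.15, numpy 2.4.6, pandas 2.3.3, scipy 1.17.1, Biopython 1.88 and matplotlib 3.10.9 were used.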

Additional observations from a re-analysis of the deposited data

How the results depend on the processing

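Each of the 30 alternatives listed for *FEZ*, *SMB*, *BRN1* and *BRN2* gave 0. No setting can turn a listed 0 into a count, so this says nothing about stability. In the deepest profile, a limit of 10 CPM gave 27 of 100 NAC loci, beside 9094 of 32678 loci. A limit of 10 counts gave 1 VND or NST factor and 5 QC markers, beside 47.3% of all loci. The profile of median depth was an alternative chosen after the data were seen. There, 1 VND or NST factor, 2 detachment genes and 6 QC markers were above 0, beside 15062 of 32678 loci. A count was taken as moved beyond 1.5 times, and a level of the 4 genes if outside its counting interval. In all, 38 of 41 listed alternatives and 7 of 10 added ones were not moved. The 41 include the 30 of the 4 genes, which could only give 0, so the total of 38 is no measure of stability. The lower numbers follow from the stricter limit or the lower depth. The order of the 4 genes, a division by coding length and the genes of most similar pattern could not be computed, since all 4 genes were at 0. No paired analysis was possible because there was 1 group.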

Other observations

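The study's QC markers, read in the same deepest profile in which *FEZ*, *SMB*, *BRN1* and *BRN2* were at 0, were led by *RIP5* (AT5G60210), which encodes a partner of ROP GTPases, with 208 CPM (198 to 219) in all 39 profiles. *GA3* (AT5G25900), an enzyme gene of gibberellin synthesis, had 409 counts or 55.0 CPM (49.8 to 60.6) but was above 0 in 15 profiles only. Its first count was 157, in the profile of QC cell 26, and 145.7 were expected in the profile before, where it was listed at 0. *OEP16-1* (AT2G28900), a channel gene of the plastid envelope, had 12.8 CPM (10.3 to 15.6) in 38 profiles, and *TRFL1* (AT3G46590), a gene for a telomere-binding protein, had 10.1 CPM (7.94 to 12.7) in 32. *PLT1* and *BBM*, regulators of the root stem cell niche, were listed at 0 in every profile, as the root cap factors were.

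Of the 22 columella markers, 13 were at 0. Among them was *SEX4* (AT3G52180), a glucan phosphatase gene of starch breakdown, which like the next 2 genes was picked after its value was seen. *BAM2* (AT4G00490), a beta-amylase gene, had 48 counts or 6.46 CPM (4.76 to 8.56) in 37 profiles. *PHS2* (AT3G46970), a starch phosphorylase gene, had 44 counts or 5.92 CPM (4.30 to 7.95) in 35 profiles. *ADG1* (AT5G48300), a gene for the enzyme that makes the sugar donor of starch synthesis, had 83 counts or 11.2 CPM (8.90 to 13.8) and was above 0 in all 39 profiles. *LZY2* and *ARL2*, relatives of the gravity genes *LZY3* and *ARG1*, had 5 counts each and were above 0 in the 5 deepest profiles.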
